A study of Caenorhabditis elegans with 2 samples.

Results

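The genes described here encode the proteins of the mitochondrial ribosome. They were taken as all protein-coding genes of Caenorhabditis elegans whose symbol is mrps- or mrpl- followed by a number in Ensembl's annotation of assembly WBcel235. This gave 70 of 19973 genes: 29 with mrps-, called small subunit here, and 41 with mrpl-, called large subunit. The subunit was read from the symbol alone and not from the place of the protein in the ribosome. Ribosomal protein genes with other symbols, such as dap-3, were not counted among the 70. The study was a chromatin immunoprecipitation with sequencing (ChIP-seq) of SMA-3 in whole hermaphrodites at the L2 larval stage, collected 24 h after synchronization as starved L1 larvae. Both samples, biological replicates 1 and 2 of a single group, were of strain CS152, which carries the sma-3 allele wk30 and the transgene qcIs[gfp::sma-3+rol-6]. The fusion protein was recovered with an antibody against GFP. The labels write the tag before sma-3 in the genotype and also call it a C-terminal GFP-FLAG tag. SMA-3 therefore came from a transgene in a sma-3 mutant background and was assayed in whole animals, all tissues at once, and immunoprecipitates of untagged animals were not analysed here. Peaks in these promoters are regions recovered with the fusion, and how much of such recovery would occur without it was not tested.

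SMA-3 is a receptor-regulated Smad, a transcription factor that carries the signal of the BMP-like ligand DBL-1 to target genes, and this pathway is best known in the worm for control of body size. The mitochondrial ribosome translates the few messages of the mitochondrial genome, which encode core subunits of the respiratory chain. Its RNAs are transcribed in the mitochondrion, whereas its proteins are encoded in the nucleus, made on cytosolic ribosomes and imported. Some of these proteins have counterparts in bacterial ribosomes and others are found in mitochondria alone. In C. elegans, loss of mitochondrial ribosomal proteins such as MRPS-5 is known to induce the mitochondrial unfolded protein response and to extend lifespan. Many worm genes lie in operons, runs of genes on a strand that are transcribed together from the promoter of the first, so that a gene inside a run may have no promoter of its own.

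The sequences below show what lay under the peaks of these genes, in windows that reach 75 bp to either side of the peak summit, written 5′ to 3′ on the strand of the named gene. Capitals mark matches, on either strand, to any of 7 short motifs that were searched, among them GTCTG, a Smad binding element, and GGCGC, a GC-rich sequence bound by Smads in other animals. The first 3 windows belong to the highest-signal peaks and each holds GGCGC, as does the window of mrpl-12. Among the 21 distinct peaks of the 70 genes, the window of mrps-31 was the only one that held GTCTG. The windows of mrpl-49 and of mrpl-1 are shown because other ribosomal protein genes share their peaks, and that of mrps-16 because its peak lay in no other gene's window. The windows are RefSeq's sequence of WBcel235 at chrII:156052-156202 for mrpl-28, chrIV:443780-443930 for mrpl-55, chrIV:14767825-14767975 for mrps-7, chrIII:10707167-10707317 for mrpl-12, chrIII:3630421-3630571 for mrps-31, chrV:12728387-12728537 for mrpl-49, chrIV:7709808-7709958 for mrpl-1 and chrII:5474083-5474233 for mrps-16. None of them touched an annotated exon, and the windows without capitals held none of the 7 motifs.
mrpl-28: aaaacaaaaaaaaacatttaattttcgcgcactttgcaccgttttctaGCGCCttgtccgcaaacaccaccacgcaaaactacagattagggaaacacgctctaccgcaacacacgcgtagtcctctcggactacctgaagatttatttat
mrpl-55: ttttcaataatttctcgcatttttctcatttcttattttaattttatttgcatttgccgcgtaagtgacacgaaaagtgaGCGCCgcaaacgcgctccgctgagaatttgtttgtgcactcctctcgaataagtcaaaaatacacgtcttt
mrps-7: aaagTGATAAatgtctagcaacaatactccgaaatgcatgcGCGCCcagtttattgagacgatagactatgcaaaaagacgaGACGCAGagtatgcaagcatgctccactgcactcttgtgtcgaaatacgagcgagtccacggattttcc
mrpl-12: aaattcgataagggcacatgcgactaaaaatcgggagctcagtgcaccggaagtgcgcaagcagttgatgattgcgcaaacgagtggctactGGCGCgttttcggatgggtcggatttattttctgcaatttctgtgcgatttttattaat
mrps-31: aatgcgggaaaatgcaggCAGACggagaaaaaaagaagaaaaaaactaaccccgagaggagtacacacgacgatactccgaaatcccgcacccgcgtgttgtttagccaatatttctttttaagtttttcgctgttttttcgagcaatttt
mrpl-49: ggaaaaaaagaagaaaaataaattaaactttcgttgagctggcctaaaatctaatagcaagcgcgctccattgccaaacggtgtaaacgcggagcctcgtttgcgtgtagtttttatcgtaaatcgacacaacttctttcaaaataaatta
mrpl-1: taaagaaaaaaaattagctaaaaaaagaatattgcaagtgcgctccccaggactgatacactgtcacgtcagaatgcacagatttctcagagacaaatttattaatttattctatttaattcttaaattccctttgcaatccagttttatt
mrps-16: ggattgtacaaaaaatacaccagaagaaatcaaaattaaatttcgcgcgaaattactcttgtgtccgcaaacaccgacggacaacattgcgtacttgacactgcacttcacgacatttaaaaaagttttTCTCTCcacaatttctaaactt

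A promoter peak was defined as a peak summit between 1000 bp upstream and 200 bp downstream of an annotated transcription start site. Of the 70 genes, 22 had a summit of the optimal list there, a share of 31.4% with a 95% exact binomial interval of 20.9 to 43.6%. Over all protein-coding genes the share was 14.3%, which lies under that interval. The optimal list is the set of 4205 peaks that the authors kept after an irreproducible discovery rate procedure on both replicates. These 4205 are the regions with the highest signal, the peak caller's own value, in the pooled list of 30000 regions, so rank 1 here is the region with the highest pooled signal. In the pooled list, which the deposited listing describes as peaks and background, 53 of the 70 genes had a region in the window (75.7%, interval 64.0 to 85.2%), against 41.5% of all genes. Intervals treat genes as independent draws, which they are not where several genes share a peak, and no test was made of these shares. Here and below, the nearest start site of a peak was sought only among those whose promoter window held the summit. With each peak given to the nearest start site alone, the share was 13 of 70 (18.6%, interval 10.3 to 29.7%), and the 11% of other genes then lies within the interval, so the separation is lost. With a peak at the first gene of a same-strand run also counted it was 54.3%, against 18.8%.

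Each replicate gave a similar count when its own 4205 highest regions were used. In replicate 1, 23 of the 70 genes had such a region in the window (32.9%), against 13.9% of all genes. In replicate 2, 25 did (35.7%), against 14.3%. Regions of both replicates reached 19 of the 70 genes (27.1%) and 12.1% of all genes.

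The shares of the 2 subunits in the optimal list were close to each other. Of the small subunit genes 9 of 29 had an optimal promoter peak (31.0%, interval 15.3 to 50.8%), and of the large subunit genes 13 of 41 (31.7%, interval 18.1 to 48.1%). Here and below, descent was read from the number in the symbol by the human numbering, and worm sequences were not compared. The split by descent gave close values for optimal peaks, with 14 of the 44 genes classed as having a bacterial counterpart (31.8%) and 8 of the 26 classed as found in mitochondria alone (30.8%). For any pooled region the values lay farther apart: 37 of 44 (84.1%, interval 69.9 to 93.4%) against 16 of 26 (61.5%, interval 40.6 to 79.8%) by descent, and 24 of 29 (82.8%, interval 64.2 to 94.2%) in the small against 29 of 41 (70.7%, interval 54.5 to 83.9%) in the large subunit. The intervals overlap in both splits. No gene of the 70 lay on X. Peaks were found on every autosome, from 3 of 12 genes on chromosome II (25%, interval 5.49 to 57.2%) to 5 of 11 on chromosome IV (45.5%, interval 16.7 to 76.6%). Over all genes of these chromosomes the shares were 13.7% and 13.3%. On chromosomes I, II, III and V the share of all genes lay within the interval, as on III with 6 of 22 (27.3%, interval 10.7 to 50.2%) against 19.8%.

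The highest peak among the 70 lay upstream of mrpl-28, the counterpart of a bacterial large subunit protein. Its pooled signal was 381, which placed it at rank 219 in the pooled list, 329 in replicate 1 and 193 in replicate 2. That of mrpl-55, a large subunit protein of mitochondria alone, had a signal of 372 and ranked 243, with 171 in replicate 1 and 286 in replicate 2. These summits lay 118 bp and 130 bp upstream of the start sites and in no other gene's promoter window. The third, at mrps-7, whose bacterial counterpart organizes the head of the small subunit, had a signal of 337 and ranked 309 (257 in replicate 1 and 359 in replicate 2). All 3 ranked above every other gene of the family in the pooled list and in both replicates. The next gene was mrpl-23 in the pooled list (rank 612) and in replicate 2 (584), and mrps-28 in replicate 1 (523).

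The next peaks in rank lay in or beside neighbouring genes. That of mrpl-23, a protein at the polypeptide exit of the large subunit, ranked 612 with a signal of 248 (694 in replicate 1 and 584 in replicate 2). Its summit lay 963 bp upstream, close to the edge of the window and in an intron of fars-1, the gene in front of it. That of mrpl-49, a protein of mitochondria alone, ranked 827 with a signal of 213 (907 in replicate 1 and 789 in replicate 2). It lay 169 bp from the start of mrpl-49 and 350 bp from that of rpl-28, a cytosolic ribosomal protein gene on the other side.

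Other small subunit genes with a peak ranged in signal from 197 down to 74.4. The peak of mrps-35 ranked 948 with a signal of 197 (1255 in replicate 1 and 895 in replicate 2), and lay 104 bp from its start and 52 bp from that of sws-1, in a non-coding exon of the latter. That of mrps-16 ranked 1274 with a signal of 168 (1201 in replicate 1 and 1376 in replicate 2). That of mrps-17, whose bacterial counterpart binds ribosomal RNA early in assembly, ranked 1478 with a signal of 152 (1538 in replicate 1 and 1722 in replicate 2). These 3 ranked above the middle of the optimal list in both replicates. The peaks of mrps-31 and mrps-25, 2 proteins found in mitochondria alone, were nearer the middle: mrps-31 had a signal of 127 and rank 1960 (1446 in replicate 1 and 2563 in replicate 2), and mrps-25 had a signal of 118 and rank 2207 (1684 in replicate 1 and 2948 in replicate 2). Both ranked higher in replicate 1 than in replicate 2. Near the end of the list were mrps-18B, at rank 3663 with a signal of 78.9 (3063 in replicate 1 and 4557 in replicate 2), and mrps-6, at rank 3942 with a signal of 74.4 (3565 in replicate 1 and 3996 in replicate 2).

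Among the other large subunit genes, mrpl-40 ranked 1051 with a signal of 187 (996 in replicate 1 and 1184 in replicate 2), and mrpl-15 ranked 1148 with a signal of 179 (1430 in replicate 1 and 971 in replicate 2). The gene mrpl-12 encodes the stalk protein that contacts translation factors. Its peak ranked 1223 with a signal of 172 (1360 in replicate 1 and 1134 in replicate 2). The peak of mrpl-45, whose product lines the tunnel exit and contacts the inner membrane in mammals, ranked 1291 with a signal of 166 (1632 in replicate 1 and 1142 in replicate 2). These 4 spanned a narrow stretch of the list. Close behind were mrpl-17, at rank 1407 with a signal of 158 (1847 in replicate 1 and 1344 in replicate 2), and mrpl-18, at rank 1538 with a signal of 149 (1776 in replicate 1 and 1423 in replicate 2). The peak of mrpl-39 ranked 3233 with a signal of 87.9 (4358 in replicate 1 and 2972 in replicate 2). The lowest, that of mrpl-34, ranked 4158 with a signal of 70.9 (6066 in replicate 1 and 3486 in replicate 2).

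The genes mrpl-1, whose bacterial counterpart forms the mobile stalk at the tRNA exit side, and mrps-24, of the small subunit, shared a single peak at rank 2201 with a signal of 118 (2848 in replicate 1 and 2032 in replicate 2). It lay 182 bp from the start of mrpl-1, 162 bp from that of mrps-24 and 147 bp from that of emc-6, a subunit of a membrane protein insertion complex. The 22 genes therefore stood on 21 peaks.

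Ranks in the replicates lay near the pooled ranks for the higher peaks. This is in part built in, since the pooled and the optimal list were derived from both replicates. Of the 22, 20 overlapped one of the 4205 highest regions of replicate 1, 21 one of replicate 2 and 19 one of each. The 3 exceptions were mrpl-39 and mrpl-34 in replicate 1 and mrps-18B in replicate 2, all among the 4 lowest. Counted by regions in the window, 86.4% of the 22 genes and 83.5% of other genes with a peak were among the highest in both replicates.

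**Figure D1:**
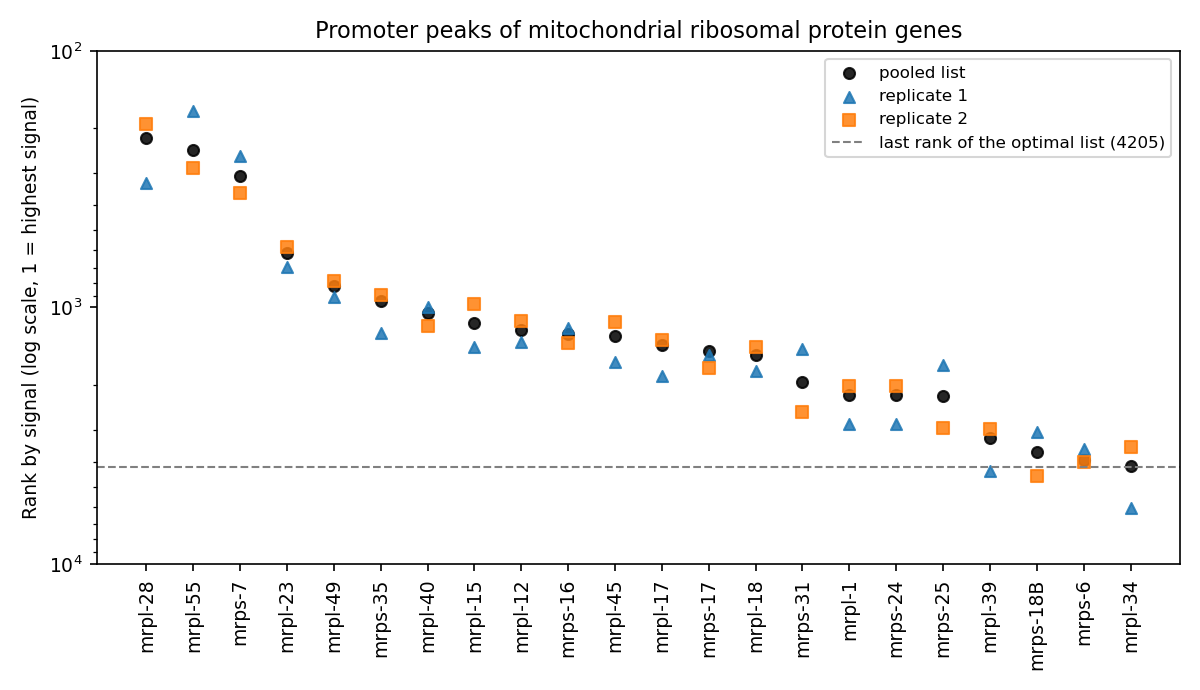
Rank by signal (log axis, rank 1 the highest signal) of the 22 promoter peaks of mitochondrial ribosomal protein genes in the pooled list (circles), replicate 1 (triangles) and replicate 2 (squares), with the last rank of the optimal list, 4205, dashed. Pooled ranks run from 219 at mrpl-28 to 4158 at mrpl-34, and 3 genes fall below the dashed line in 1 replicate.

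The 22 peaks were of middling strength. Their median pooled signal was 162 (interval of the median 118 to 197), against 136 over the peaks of other genes with one. Their median rank was 1349 (interval 948 to 2201), against 1764. Both values of the other genes lie within these intervals. The median width was 199.5 bp (interval 169 to 400 bp), against 400 bp for other genes, a value at the end of the interval, and 6 of the 22 were 400 bp wide.

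Membership in the optimal list depended on a threshold that several genes were close to. Just inside it was mrpl-34, at rank 4158 with a signal of 70.9, and just outside it was mrps-23, at rank 4283 with a signal of 69.2. Then followed mrpl-32 at rank 4659, mrps-18A at 4782, mrps-9 at 4830 and mrpl-50 at 5239. The window had an edge of the same kind: the summit of mrpl-23 lay inside it at 963 bp, whereas a peak of rank 667 lay 1016 bp upstream of mrps-28 and was not counted. In replicate 1 the summit of a region there, ranked 523, fell inside the window of mrps-28.

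Of the 48 genes without an optimal promoter peak, 31 had a lower-ranked pooled region in the window. Beyond the 5 genes named at the threshold these were, in order of rank, mrpl-9, mrps-12, mrpl-19, mrpl-41, mrpl-35, mrpl-20, mrpl-42, mrps-10, mrps-15, mrps-21, mrps-34, mrpl-48, mrpl-54, mrps-18.C, mrpl-11, mrpl-13, mrps-14, mrps-11, mrpl-22, mrps-2, mrps-18C, mrpl-36, mrps-28, mrpl-16, mrps-33 and mrpl-24. They ran from rank 5455 with a signal of 55.2 at mrpl-9 to rank 26852 with a signal of 12 at mrpl-24. Among them mrps-12, whose bacterial counterpart lies at the decoding centre, stood at rank 5829.

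The remaining 17 genes had no pooled region in the window: mrpl-2, mrpl-4, mrpl-10, mrpl-21, mrpl-30, mrpl-37, mrpl-38, mrpl-44, mrpl-46, mrpl-47, mrpl-51, mrpl-53, mrps-5, mrps-22, mrps-26, mrps-27 and mrps-30. The gene mrps-5, the one best known for its part in lifespan, had no region in the window in either replicate. A few of the 17 had a region of high rank in a single replicate. In replicate 1, a region of rank 1345 lay in the window of mrpl-47 and one of rank 2482 in that of mrpl-37, with none in replicate 2. The gene mrpl-44 had regions of rank 7616 in replicate 1 and 3179 in replicate 2. Of the 4205 highest regions, 59 in replicate 1 and 42 in replicate 2 overlapped no pooled region. Optimal peaks outside the window lay close to 2 of the 17: one of rank 2944 had its summit inside the gene mrpl-53, and one of rank 335 lay 466 bp from the gene mrpl-51.

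**Figure D2:**
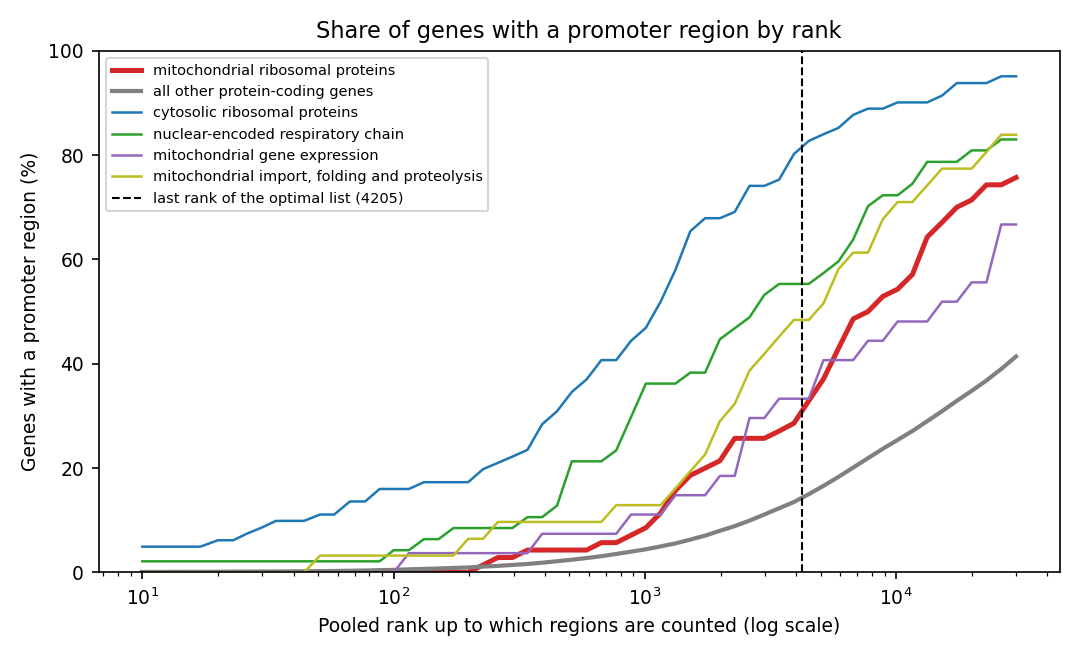
Percentage of genes with a pooled region in the promoter window (vertical axis) among the regions down to a given rank (horizontal log axis), for the 70 mitochondrial ribosomal protein genes (thick red), all other protein-coding genes (grey) and 4 related lists (thin lines). The red line leaves 0 at rank 219, reaches 31.4% at the end of the optimal list (dashed) and 75.7% at rank 30000, where the grey line is at 41.4%.

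Genes of related functions had promoter peaks at differing shares. Of 81 cytosolic ribosomal protein genes, 66 had one (81.5%), led by rpl-3 at rank 1, rpl-15 at rank 2 and rpl-20 at rank 6. Of 47 nuclear genes listed by symbol under the respiratory chain, 26 had one (55.3%), led by cox-5A at rank 10, cox-5B at rank 98 and atp-1 at rank 123. This list did not separate subunits from assembly factors, and cox-10 and cox-14 are among the 26. Of 31 genes of mitochondrial import, folding and proteolysis, 15 had one (48.4%), led by the chaperonin hsp-60 at rank 51, ddp-1 at rank 182 and tomm-20 at rank 241. This list also held genes of the mitochondrial unfolded protein response, such as atfs-1 and ubl-5, which are among the 15. Of 27 other genes of mitochondrial gene expression, 9 had one (33.3%), led by ears-2, a mitochondrial tRNA synthetase gene, at rank 113, mtcu-2 at rank 369 and the elongation factor gene gfm-1 at rank 838. This list also held the ribosomal protein gene dap-3 and genes of mitochondrial DNA upkeep, such as mtss-1, which is among the 9. By this count over all genes of a list, the 70 genes, at 31.4%, were nearest to this last list. The order changed with what was counted: among genes without a gene on the same strand within 500 bp upstream, the share was 48.8% of the 70's 41 such genes, 38.5% of the 13 of mitochondrial gene expression and 52.6% of the 19 of the import list, and any pooled region was found at 75.7% of the 70 genes and 66.7% of the mitochondrial gene expression list. The interval of the 70 ends, at 43.6%, below the shares of the cytosolic ribosomal proteins, the respiratory chain and the import list, although the interval of the import list begins at 30.2%.

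The layout of neighbouring genes separated the 70 genes more than their subunit did. For 29 of the 70 (41.4%), a gene on the same strand ended within 500 bp upstream of the start or overlapped the start. This held for 20.1% of other genes. Within this set, 2 of 29 genes had a peak in their own window (6.90%, interval 0.846 to 22.8%), against 10.9% of all genes with such a neighbour. They were mrpl-1 and mrpl-23. In contrast, of the 27 genes without such a neighbour but with a start site on the other strand within 1000 bp (a divergent start), 15 had a peak (55.6%, interval 35.3 to 74.5%), against 30.6% of all genes so placed. Of the 14 genes with neither neighbour, 5 had a peak (35.7%, interval 12.8 to 64.9%), against 10.7%.

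When the run of same-strand genes was followed to its first gene, 18 of the 29 genes had a peak in the promoter window of that first gene (62.1%, interval 42.3 to 79.3%), against 27.3% of all genes with such a neighbour. The first genes numbered 28, since mrps-2 and mrpl-4 follow natc-1 in the same run. Of the 27 genes in runs without a peak of their own, 16 were behind such a first gene, and the other 2 of the 18 were mrpl-1 and mrpl-23. For mrpl-1 the peak in its own window and that of its first gene, emc-6, were the same peak. The highest peak at a first gene was at F29B9.11, in front of mrps-21, at rank 86. That at rpn-3, a proteasome subunit gene in front of mrpl-32, ranked 110, and that at clsp-1 in front of mrpl-54 ranked 129. The peak at nrde-2, in front of mrps-14, ranked 364, that at eif-3.E, a translation initiation factor gene in front of mrps-30, ranked 420, and that at atp-2, an ATP synthase subunit gene in front of mrps-26, ranked 470. All 6 ranked above every peak in the windows of mitochondrial ribosomal protein genes except the 3 highest. The others were tag-124 before mrpl-53, natc-1 before mrps-2 and mrpl-4, misc-1 before mrpl-41, T14B4.3 before mrps-18.C, W04D2.4 before mrps-11, W04B5.5 before mrpl-30, vps-37 before mrpl-48, uev-1 before mrps-27 and cct-2 before mrpl-50, at ranks from 509 to 2959. Runs were built from distance and strand alone and are not annotated operons. Whether a peak at the first gene bears on the gene behind it was not tested.

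**Figure D3:**
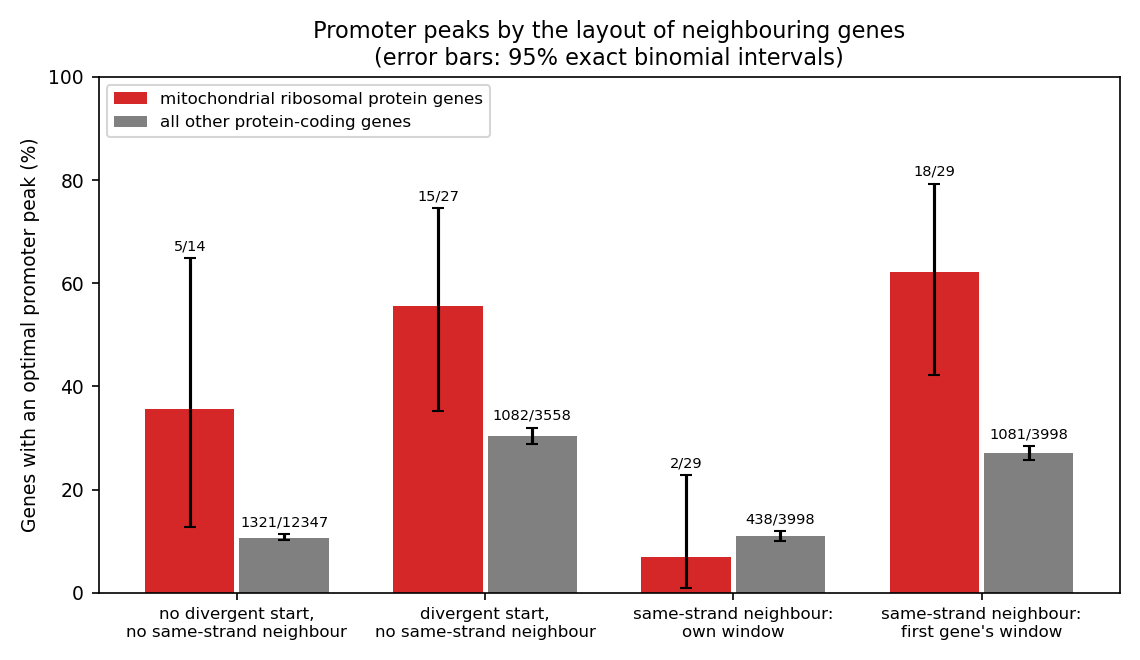
Percentage of genes with an optimal promoter peak (bars, with 95% exact binomial intervals) among mitochondrial ribosomal protein genes (red) and all other protein-coding genes (grey), by the genes next to them; numbers above the bars are genes with a peak of genes in all. For genes with a same-strand neighbour, the third pair counts a peak in the gene's own window (2 of 29) and the fourth a peak in the window of the first gene of the run (18 of 29).

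The position of lower-ranked regions also went with the layout. Of the 31 genes with a pooled region but no optimal promoter peak, 17 had a same-strand neighbour, and in 11 of these the summit of the best region lay at or downstream of the start site (64.7%, interval 38.3 to 85.8%), against 33.2% of other genes of this kind. Of the 14 without such a neighbour, 1 did (7.14%, interval 0.181 to 33.9%), against 13.9%, a value within the interval. The 11 ranked from 5239 at mrpl-50 to 22189 at mrps-33.

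Most of the peaks could be placed at more than 1 gene. Of the 22 genes, 16 shared their peak with the window of another gene (72.7%, interval 49.8 to 89.3%), against 46.4% of other genes with a peak. In 13 the start site of the mitochondrial ribosomal protein gene was the nearest of those whose window held the summit (59.1%, interval 36.4 to 79.3%), against 77.1%. Other start sites were not compared, and mrpl-23, with its summit in an intron of fars-1, was among the 13. The 9 genes for which another start site was nearer were mrps-35, mrpl-40, mrpl-12, mrpl-45, mrpl-18, mrpl-1, mrps-24, mrps-6 and mrpl-34. The peak of mrpl-40 was 197 bp from its start and 19 bp downstream of the start of F54C4.4. That of mrps-6 was 298 bp away, and 247 bp from the start of rpn-8, a proteasome subunit gene. That of mrpl-34 was 233 bp away, and 177 bp from that of lid-1. The 6 peaks in no other window were those of mrpl-28, mrpl-55, mrpl-23, mrpl-15, mrps-16 and mrps-31. For a shared promoter, the lists do not tell which of its genes a peak belongs to.

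All 22 summits lay upstream of the start site, as did 95.2% of those of other genes. In 17 the distance was at most 250 bp (77.3%, interval 54.6 to 92.2%), against 48.8%. The median position was 176 bp upstream (interval 130 to 238 bp), against 232 bp for other genes, which lies within the interval. Small subunit genes had their summits between 104 and 298 bp upstream. The 4 farthest, between 363 and 963 bp upstream, all belonged to the large subunit: mrpl-45, mrpl-12, mrpl-15 and mrpl-23.

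**Figure D4:**
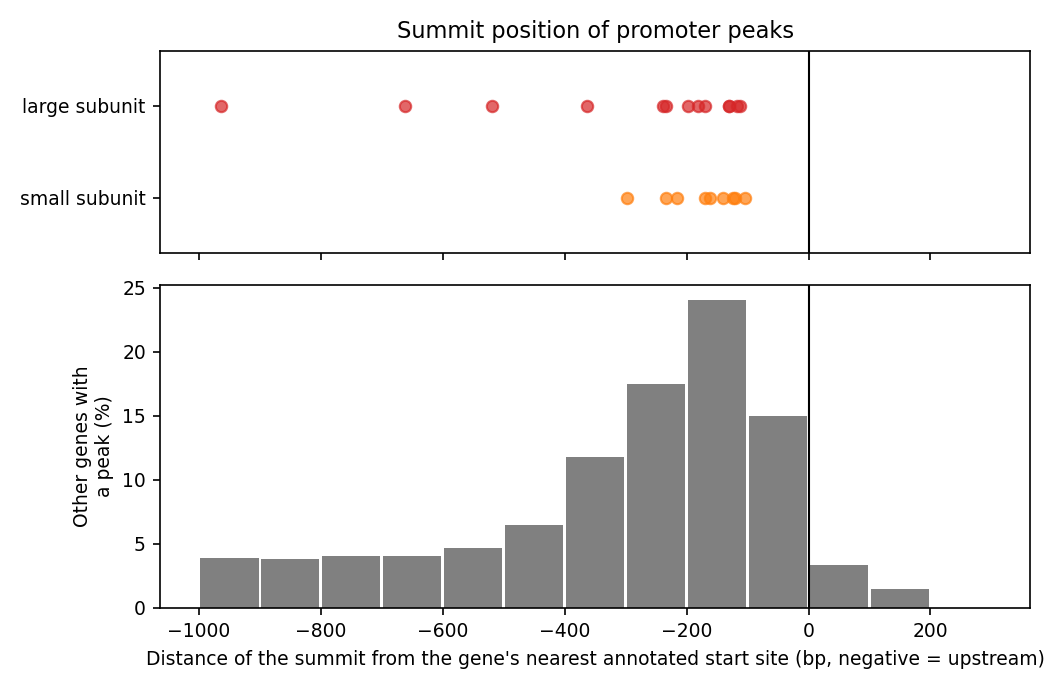
Distance of the peak summit from the gene's nearest annotated start site in bp (negative is upstream), for the 22 mitochondrial ribosomal protein genes by subunit (points, upper panel) and as percentage of the 2841 other genes with an optimal promoter peak in bins of 100 bp (bars, lower panel). The 9 small subunit points lie between 104 and 298 bp upstream, and 4 large subunit points lie between 363 and 963 bp upstream.

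The letters under the peaks were counted in the same windows around the 21 distinct summits, around the 2336 optimal summits in promoter windows of other genes, and in windows centred 150 bp upstream of the start of all 19973 genes. Motifs were searched as exact letters on both strands, and overlapping matches of different motifs were each counted. GGCGC was in 10 of the 21 windows (47.6%, interval 25.7 to 70.2%), in 27.3% of those of other promoter peaks and in 8.04% of those at all gene starts. It was in the windows of mrpl-28, mrpl-55, mrps-7, mrpl-23, mrpl-15, mrpl-12, mrpl-17, mrps-25, mrpl-39 and mrps-6. GTCTG was in 1 of 21 (4.76%, interval 0.120 to 23.8%), that of mrps-31, against 22.9% and 14.3%. For both motifs the share of other promoter peaks lies within the interval of the 21, so at this number of peaks neither difference could be told from counting error.

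The other motifs were in 5 windows or fewer. GAGAGA was in 3 of 21 (14.3%), against 29.7% of other promoter peaks and 12% of all gene starts. TGATAA, the core letters of GATA factor sites, was in 3 (14.3%), against 15.5% and 17.3%. GGGCGG, a site of Sp and KLF factors, and CTGCGTC were each in 1 (4.76%), against 9.2% and 12.3% of other promoter peaks and 3.86% and 2.61% of all gene starts. CACGTG, the E-box, was in 0 of 21, which allows a share of up to 16.1%, against 8.09% and 2.80%. A run of T, TTTTTTTT, was in 5 (23.8%, interval 8.22 to 47.2%), against 7.62% of other promoter peaks and 19.7% of all gene starts. The share of other promoter peaks lies just under the interval and that of all gene starts within it. The T run was 1 of 8 motifs counted, no test was made, and it is not marked in the sequences shown. With each peak given to the nearest start site alone, its share was 7.69%. GC content was 39.7% in the 21 windows, 43.5% in those of other promoter peaks and 34.1% at all gene starts. A match is a match of letters and not a binding site.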

How the data were processed

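ChIP-seq regions of 2 biological replicates were analysed from the authors' deposited region lists on ce11. Per the labels and the deposited file listing, each list was called against a control alignment shared by both replicates, and the optimal list came from an irreproducible discovery rate procedure. The sources used here name no aligner, peak caller, version, threshold or read depth, so intervals cover counting of genes or peaks only. Column 7 holds the authors' signal per region, whose scaling is not given; it served only to rank and describe regions within a list. There are 30000 regions in each of the pooled and replicate lists, and the optimal list equals the 4205 highest pooled regions.

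Genes and 29314 start sites came from Ensembl release 115, and sequence from RefSeq's WBcel235, the assembly of ce11. Mitochondrial genes and transcripts of other biotypes were left out after a first count had been seen, to follow the processing already described for these data; this left the count of 22 genes as it was and lowered that of the import, folding and proteolysis list by 1. Every region ended within its chromosome. The members, the lists and the motifs were chosen with earlier results of these data known. Lists were matched by symbol, and 4 symbols had no gene. All genes of the family are named, and of each related list up to 3 by rank, with a few others named to describe what a list holds. Intervals are 95% exact (Clopper-Pearson) intervals, or order-statistic intervals for medians. No test was made: there is a single group. The assignment of peaks to genes was checked on simulated data. Exact intervals came from scipy 1.17.1 and plots from matplotlib 3.10.9, under Python 3.11.15, with tables handled in pandas 2.3.3 and numpy 2.4.6.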

Additional observations from a re-analysis of the deposited data

How the results depend on the processing

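The share of the 70 genes with an optimal promoter peak stayed above that of other genes under all 11 alternatives tried, between 18.6% and 54.3%. The share of other genes lay below the exact interval in 10 of them and within it in 1: assigning each peak to the nearest start site alone gave 18.6% (interval 10.3 to 29.7%) against 11% of other genes, and lowered that of the large subunit to 17.1%, that of any pooled region to 57.1% and that of the T run to 7.69%. Leaving out genes with a same-strand neighbour raised it to 48.8%, the difference from other genes from 17.2 to 33.7 percentage points and the small subunit to 56.2%. Counting a peak at the first gene of a run, an alternative chosen after seeing the data, gave 54.3%, a difference of 35.5 points, 58.6% of the small and 51.2% of the large subunit. Also chosen after seeing the data were as many pooled regions as the ce10 optimal list holds (38.6%, against 17.1% of other genes) and autosomal genes alone (31.4%, against 14.2%). The latter could not change the share of the 70 genes, since none of them lay on X. With windows of 50 bp to either side of the summit GTCTG was in 0% of the member windows. With the region list of 1 replicate in place of the optimal list the share was 35.7% without replicate 1 and 32.9% without replicate 2. No paired analysis was possible because there is a single group and no result comes from a test. The counts rest on the signal order of lists whose depth is unknown, and 5 further genes fell between rank 4205 and rank 5405, the length of the optimal list deposited on ce10.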

Other observations

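After the sequences had been read, all strings of 9 letters in the 21 windows were counted, with both strands counted as 1. Of 2714 distinct strings, 10 were in 4 or more windows, and 8 of these had at most 1 letter other than A and T. The other 2 were GCAAACACC, in the windows of mrpl-28, mrps-16, mrpl-45 and mrps-17 (4 of 21, 19.0%, and 2.87% of other promoter peaks), and ACTCCTCTC, in those of mrpl-55, mrps-35, mrpl-18 and mrps-31 (19.0%, and 2.27%). Strings of 6 to 8 letters, and 9 strings picked by eye, had been looked at in the same windows and are not given. The strings shown were picked from these windows for being frequent in them, so their share there is high by choice and was not tested.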
